A study of Oryza sativa with 6 samples.

Results

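Gibberellins are plant hormones that promote stem and leaf growth, and 10 rice genes of their synthesis, deactivation and signalling are described here in mature leaves of an SRL1 knockout and its control. The 10 genes were taken by their locus identifiers as a fixed list of well-known pathway genes, out of 39477 loci in the deposited table, and all 10 were present. The list was chosen with earlier results of these data known. The series holds 6 RNA-seq libraries of Oryza sativa leaves sampled 60 days after germination from greenhouse plants, with a day temperature of 30 °C and a night temperature of 25 °C. The genotype labelled srl1-KO (plants with SRL1 knocked out, 3 libraries) is compared with the control labelled non-KO (3 libraries). The labels name neither the cultivar, the alleles nor the number of knockout lines, and their protocol refers to leaves of a single plant. Nothing says that the libraries of a genotype came from separate plants, so every p-value measures the spread between these libraries, which may be technical. SRL1 (SEMI-ROLLED LEAF1) is known for its effect on leaf rolling.

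Gibberellin synthesis starts in the plastid with the cyclization of a diterpene precursor to ent-kaurene, which cytochrome P450 enzymes oxidize to the precursor GA12. Soluble 20-oxidases and 3-oxidases then make the bioactive forms, and 2-oxidases and the P450 enzyme EUI1 inactivate them. Bioactive gibberellin binds the receptor GID1, and the complex holds the DELLA repressor SLR1 for the F-box protein GID2, which marks it for degradation. The pathway is known for feedback in many plants, with transcripts of 20-oxidases and 3-oxidases falling and those of some 2-oxidases rising when the hormone accumulates.

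The values are FPKM as the authors deposited them, that is, fragment numbers divided by transcript length and by the mapped total of each library. By that definition they correct for length, and levels are set beside each other between genes on that basis. How FPKM was computed is not stated, so this basis was not checked. Summed FPKM ran from 598611 to 628270 per library and 18861 to 19342 loci reached 1 FPKM. The absolute depth is unknown. Ratios at loci under 0.1 FPKM put the depth of 5 libraries at 0.886 to 0.949 times the depth of the knockout replicate 1. SRL1 (Os07g0102300, chromosome 7) was at 1.62 to 2.22 FPKM among the knockout libraries and at 2.50 to 3.30 FPKM among the control libraries, so its transcript was still present in every knockout library (limma adjusted p = 0.107). Since some knockout alleles keep their transcript, this check decides nothing about the genotype labels. The leaf markers matched the tissue label, with the Rubisco small subunit locus RBCS2 at 3939 to 8867 FPKM.

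Of the 10 gibberellin genes, 9 averaged 1 FPKM or more across all libraries and were tested. GA20ox2 and SLR1 rose in srl1-KO, GA2ox3 and GID1 fell, and 5 did not pass the threshold (limma on log2(FPKM + 1), adjusted p under 0.05 over all 19556 tested loci). The whole table had many calls, 27.2% of tested loci, of which 15.3% of tested loci rose and 11.9% fell, and 4 calls in 9 genes are to be read against that share. The genotypes did not overlap at 5 of the 9 tested genes, against 47.1% of all tested loci. The median size of the log2 change was 0.66 over the 9 genes and 0.33 over all tested loci. Because the list was chosen with earlier results of these data known, these comparisons with all loci are descriptions and test nothing. Which direction held more calls over the table depended on the settings of the fit. In the values as deposited 56.3% of calls rose, against 43.0% after scaling by the median of ratios between libraries. The share was 57.3% after rescaling to equal sums and 54.1% with quantile normalization. It was 48.4% with the replicate number as a block in the fit and 45.2% without srl1-KO replicate 2.

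**Figure D1:**
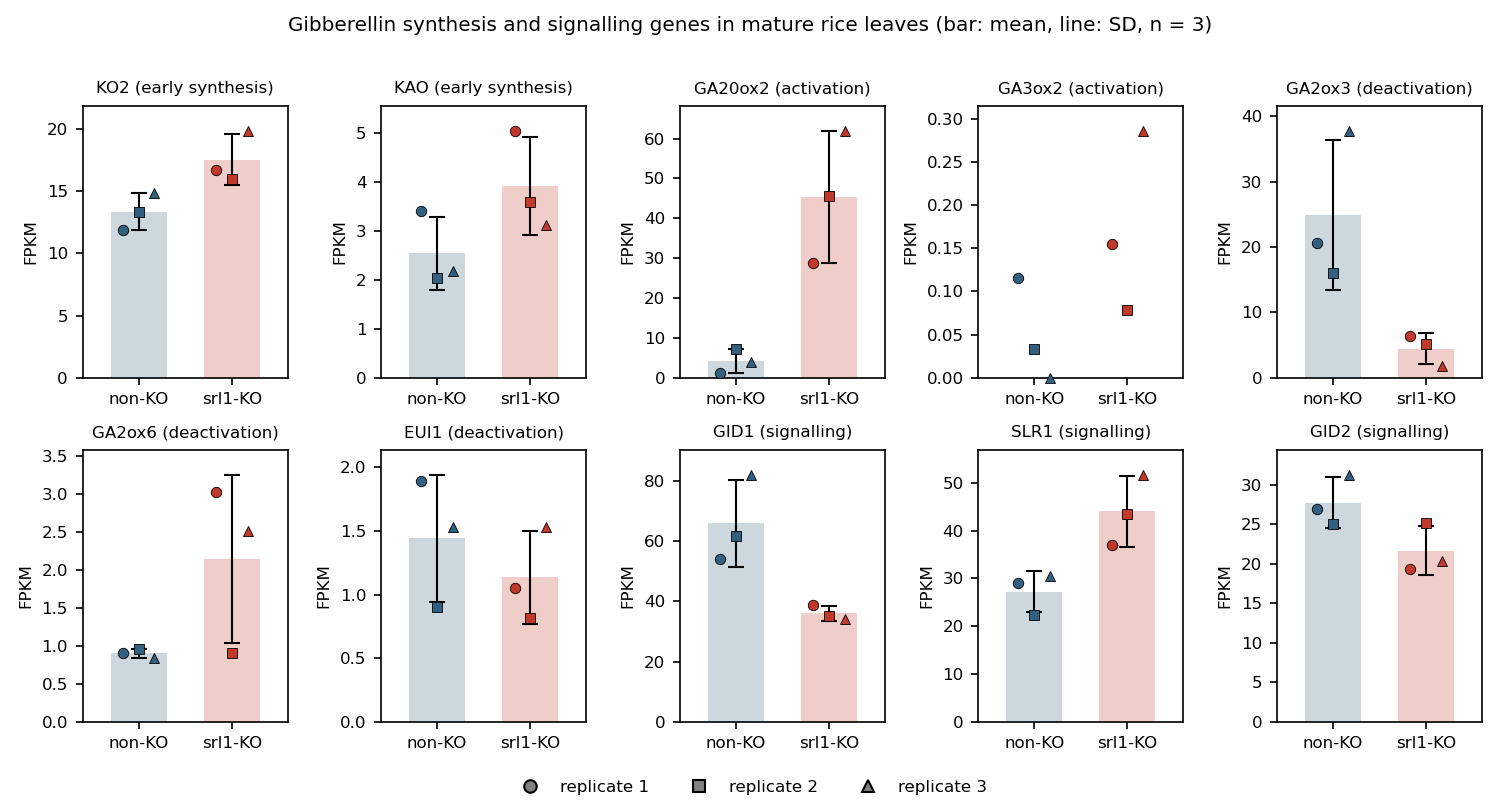
FPKM of the 10 gibberellin genes in each library, with non-KO in blue and srl1-KO in red, and a symbol for each replicate; bars are means and lines SD (n = 3), omitted for GA3ox2 because 1 library is listed at 0. GA20ox2 lies at 28.7 to 61.9 FPKM in srl1-KO and at 1.29 to 7.22 FPKM in non-KO, while GA2ox3 lies at 1.84 to 6.37 and 16.1 to 37.8 FPKM.

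Neither listed gene of early synthesis passed the test. KO2 (Os06g0570100, chromosome 6) encodes ent-kaurene oxidase, the P450 enzyme that turns ent-kaurene into ent-kaurenoic acid. It was at 16.7, 16.0 and 19.9 FPKM in knockout replicates 1, 2 and 3 and at 11.9, 13.3 and 14.8 FPKM in the control replicates. The genotypes did not overlap, but the difference of 0.37 ± 0.13 (SE) on the log2 scale missed the threshold (limma adjusted p = 0.0786). Its 95% interval ran from 0.06 to 0.68. Rice has further ent-kaurene oxidase genes beside this one, so fragments may be split between copies. The reference table gives the names KO1 and KO2 to a single gene and lists 1 further gene that overlaps it. The KO2 values are therefore uncertain.

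KAO (Os06g0110000, chromosome 6) encodes ent-kaurenoic acid oxidase, which makes GA12. It was at 5.05, 3.59 and 3.13 FPKM in the knockout libraries and at 3.40, 2.04 and 2.19 FPKM in the control libraries. The lowest srl1-KO value lay under the highest non-KO value, and the log2 change of 0.48 ± 0.21 (SE) did not pass (limma adjusted p = 0.143, 95% interval -0.04 to 0.99). Of the earlier enzymes, KS1 (Os04g0611800), the ent-kaurene synthase, was lower in srl1-KO by a narrow margin. It stood at 10.1, 7.97 and 13.4 FPKM in srl1-KO and at 17.6, 16.8 and 14.7 FPKM in non-KO, with no overlap, and its log2 change was -0.62 ± 0.19 (SE; limma adjusted p = 0.0498). Leaving out any library except srl1-KO replicate 3 ended that call (adjusted p between 0.0699 and 0.133), as did 7 other settings of the fit. CPS1 (Os02g0278700), the ent-copalyl diphosphate synthase ahead of it, was at 1.88 ± 0.254 FPKM in srl1-KO and 2.55 ± 1.02 FPKM in non-KO (SD, n = 3 each) and did not pass (limma adjusted p = 0.457).

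The 20-oxidase gene GA20ox2 showed the largest change of the 9 tested genes. GA20ox2 (Os01g0883800, chromosome 1) is SD1, the gene whose loss gave the semi-dwarf rice varieties of the Green Revolution. It was at 28.7, 45.7 and 61.9 FPKM in knockout replicates 1, 2 and 3 and at 1.29, 7.22 and 3.92 FPKM in control replicates 1, 2 and 3. Every srl1-KO library was above every non-KO library, and non-KO replicate 1 was the lowest of all. The means were 45.4 ± 16.6 and 4.14 ± 2.97 FPKM (SD, n = 3 each), an 11.0-fold difference. The log2 change was 3.29 ± 0.49 (SE; limma adjusted p = 0.00466), the rise of rank 31 among the 19556 tested loci. The fold of the means was 17.4 without non-KO replicate 2, and between 8.15 and 13.0 without any other library.

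Of the other 20-oxidase genes looked up, GA20ox1 and GA20ox4 were tested and neither passed. GA20ox1 (Os03g0856700) was at 3.18 ± 1.01 FPKM in srl1-KO and 2.93 ± 0.99 FPKM in non-KO (SD, n = 3 each), with a 95% interval of the log2 change from -0.52 to 0.72. GA20ox4 (Os05g0421900) was at 1.64 ± 0.416 and 1.35 ± 0.08 FPKM, with an interval from -0.26 to 0.57. Neither interval overlaps that of GA20ox2, from 2.12 to 4.46. GA20ox3 (Os07g0169700) was too low to be tested and was listed at 0 in every library except non-KO replicate 2, at 0.191 FPKM.

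The 3-oxidase genes, which carry out the last step to the bioactive hormone, were barely detected. GA3ox2 (Os01g0177400, chromosome 1), the gene of the dwarf mutant d18, was at 0.155, 0.0783 and 0.286 FPKM in the knockout libraries. It was at 0.115 and 0.0338 FPKM in control replicates 1 and 2 and listed at 0 in replicate 3. The groups overlapped, and the gene was too low to be tested with the others (two-sided exact permutation p = 0.2, n = 3 each, where 0.1 is the smallest possible). GA3ox1 (Os05g0178100) was listed at 0 in all srl1-KO libraries and reached at most 0.0951 FPKM in non-KO.

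**Figure D2:**
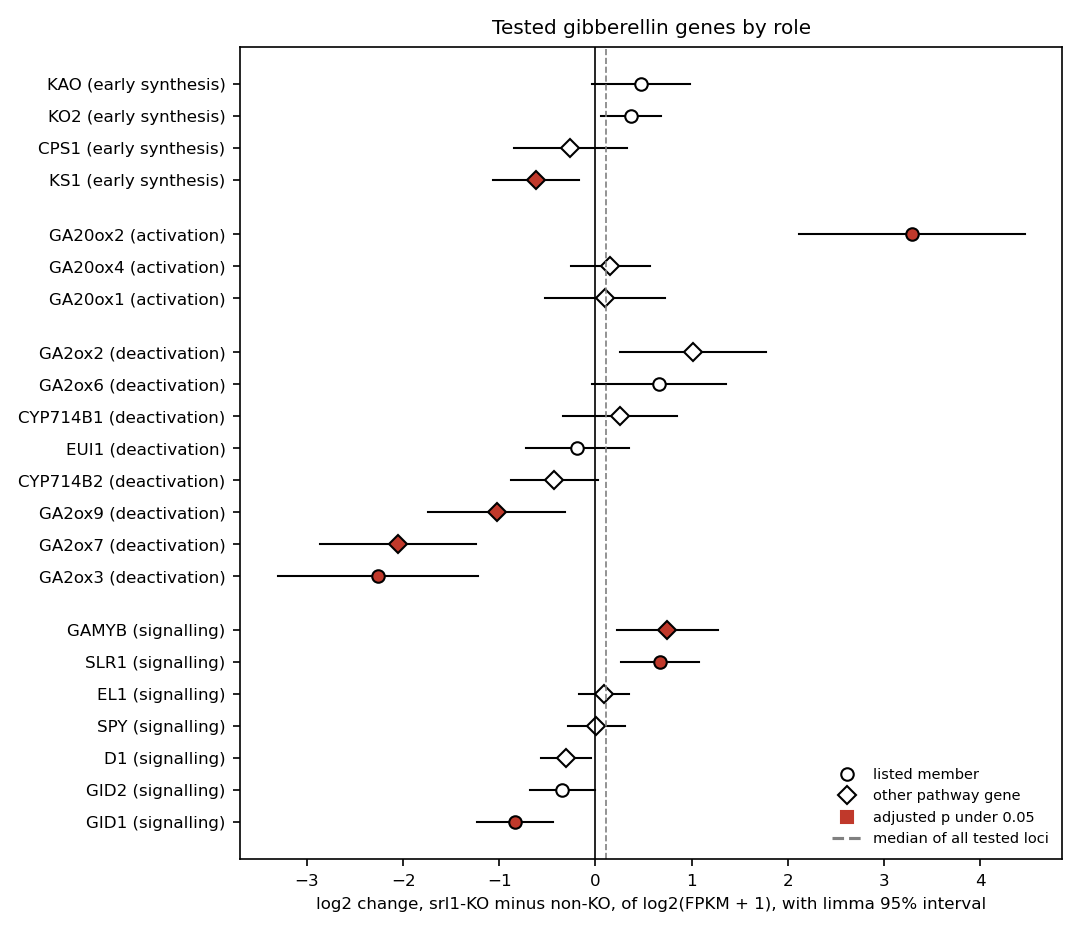
Log2 change (srl1-KO minus non-KO) of log2(FPKM + 1) with its limma 95% interval for the 22 gibberellin genes that were tested, grouped by role, with circles for the listed genes, diamonds for other pathway genes and red for an adjusted p under 0.05. GA20ox2 stands at 3.29 and GA2ox3 and GA2ox7 at -2.26 and -2.05, while the dashed line marks the median of all tested loci at 0.11.

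Among the deactivating enzymes, GA2ox3 fell, and neither GA2ox6 nor EUI1 passed the test. GA2ox3 (Os01g0757200, chromosome 1) encodes a 2-oxidase that inactivates gibberellins. It was at 6.37, 5.20 and 1.84 FPKM in knockout replicates 1, 2 and 3 and at 20.6, 16.1 and 37.8 FPKM in control replicates 1, 2 and 3. The genotypes did not overlap, with srl1-KO replicate 3 the lowest and non-KO replicate 3 the highest. The means were 4.47 ± 2.35 and 24.8 ± 11.5 FPKM (SD, n = 3 each), a 5.56-fold difference. The log2 change was -2.26 ± 0.44 (SE; limma adjusted p = 0.0116), the fall of rank 389 among all tested loci.

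GA2ox6 (Os04g0522500, chromosome 4), a 2-oxidase that acts on C20 gibberellin precursors, did not pass the test. It was at 3.03, 0.905 and 2.51 FPKM in the knockout libraries and at 0.910, 0.957 and 0.839 FPKM in the control libraries. The srl1-KO libraries 1 and 3 lay above all non-KO libraries, and srl1-KO replicate 2 lay among them. The log2 change of 0.66 ± 0.29 (SE) had a limma adjusted p of 0.139, and without srl1-KO replicate 2 it was 0.98 with an adjusted p of 0.0205. In the other 15 settings of the fit it did not pass (adjusted p between 0.136 and 0.354). GA2ox6 averaged 0.90 FPKM in non-KO and was tested only through its srl1-KO mean of 2.15 FPKM. EUI1 (Os05g0482400, chromosome 5) encodes the P450 enzyme whose loss gives an elongated uppermost internode. It was at 1.06, 0.819 and 1.53 FPKM in srl1-KO and at 1.89, 0.904 and 1.53 FPKM in non-KO. The groups overlapped, and its log2 change had a 95% interval of -0.72 to 0.35 (limma adjusted p = 0.562).

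Beside the 3 listed deactivation genes, 9 further genes grouped with them were looked up and 5 were tested. These counts include the 13-oxidase genes CYP714B1 and CYP714B2, which are not 2-oxidases. GA2ox7 and GA2ox9 fell, none rose and 3 did not pass, where 11.9% of all tested loci fell and 27.2% were called. GA2ox7 (Os01g0209700) was at 0.142, 0.843 and 0.186 FPKM in srl1-KO and at 5.03, 7.11 and 2.64 FPKM in non-KO, with no overlap. Its means differed 12.6-fold, or 30.1-fold without srl1-KO replicate 2, and the log2 change was -2.05 ± 0.34 (SE; limma adjusted p = 0.00663). GA2ox7 averaged 0.39 FPKM in srl1-KO and was tested only through its non-KO mean of 4.93 FPKM. Both folds divide by srl1-KO values under 1 FPKM at an unknown depth, so their size is uncertain. GA2ox9 (Os02g0630300) was at 3.14, 4.49 and 5.06 FPKM in srl1-KO and at 13.4, 5.81 and 10.8 FPKM in non-KO, again without overlap. Its log2 change was -1.03 ± 0.30 (SE; limma adjusted p = 0.0455), and the call ended without any library except non-KO replicate 2 (adjusted p between 0.063 and 0.12), with no filter (0.0836) and with the replicate block (0.0831).

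GA2ox2 (Os01g0332200) had the opposite sign. It was at 3.15, 3.36 and 8.01 FPKM in srl1-KO and at 1.30, 2.12 and 1.75 FPKM in non-KO. The genotypes did not overlap, but the log2 change of 1.02 ± 0.32 (SE) missed the threshold (limma adjusted p = 0.0569), and it passed with a pseudocount of 0.1 (0.0482). The ratio of GA2ox3 to GA2ox2 within a library, which no rescaling of the library can change, was 2.02, 1.55 and 0.23 in srl1-KO and 15.8, 7.59 and 21.7 in non-KO. Both genes were picked for this ratio after their values were seen, so it is a description with no test. The 13-oxidase genes CYP714B1 (Os07g0681300) and CYP714B2 (Os03g0332100) did not pass (log2 change 0.25 and -0.43, limma adjusted p = 0.478 and 0.14). CYP714B2 did pass with library weights (-0.55, limma adjusted p = 0.0433) and without srl1-KO replicate 3 (-0.61, 0.0381). GA2ox1, GA2ox5 and GA2ox8 reached at most 0.278 FPKM in any library, and GA2ox4 was listed at 0 throughout.

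**Figure D3:**
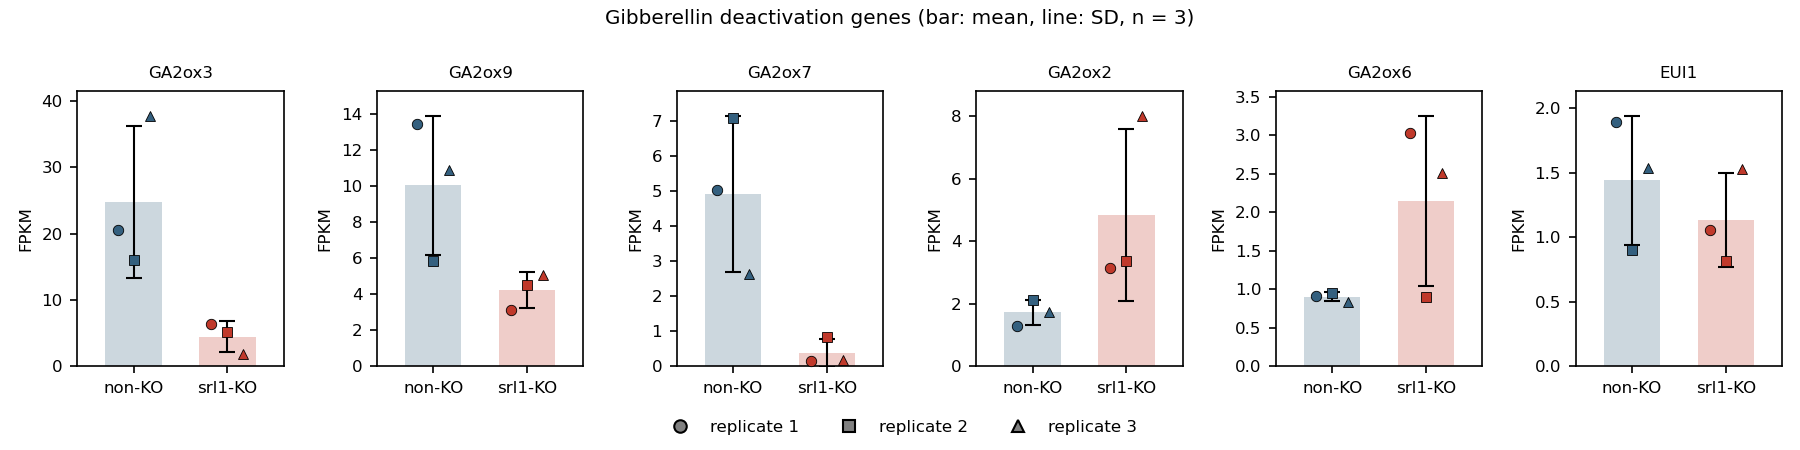
FPKM of 5 gibberellin 2-oxidase genes and EUI1 in each library, with bars for means and lines for SD (n = 3, cut at 0 for GA2ox7). GA2ox3, GA2ox9 and GA2ox7 are lower in all srl1-KO libraries than in any non-KO library, GA2ox2 is higher in all of them, and GA2ox6 and EUI1 overlap between genotypes.

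In the signalling group, the receptor gene fell and the repressor gene rose. GID1 (Os05g0407500, chromosome 5) encodes the soluble gibberellin receptor. It was at 38.8, 35.1 and 34.3 FPKM in knockout replicates 1, 2 and 3 and at 53.9, 61.6 and 82.0 FPKM in control replicates 1, 2 and 3. The 3 knockout libraries lay close together and under every control library, and non-KO replicate 3 was the highest. The means were 36.0 ± 2.39 and 65.9 ± 14.5 FPKM (SD, n = 3 each), a 1.83-fold difference. The log2 change was -0.83 ± 0.17 (SE; limma adjusted p = 0.013), and without srl1-KO replicate 2 the adjusted p was 0.0527.

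SLR1 (Os03g0707600, chromosome 3) encodes the DELLA protein that represses gibberellin responses. It was at 37.0, 43.4 and 51.7 FPKM in knockout replicates 1, 2 and 3 and at 29.0, 22.3 and 30.5 FPKM in control replicates 1, 2 and 3. The groups did not overlap. The means were 44.0 ± 7.4 and 27.3 ± 4.33 FPKM (SD, n = 3 each), a 1.62-fold difference, and the log2 change was 0.67 ± 0.17 (SE; limma adjusted p = 0.0298). The call was lost without srl1-KO replicate 2 (adjusted p = 0.0897), srl1-KO replicate 3 (0.0683), non-KO replicate 1 (0.0634) or non-KO replicate 2 (0.0729). The level of SLR1 protein, which the pathway controls by degradation, was not measured.

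GID2 (Os02g0580300, chromosome 2) encodes the F-box subunit of the ubiquitin ligase that recognizes SLR1. It was at 19.4, 25.2 and 20.4 FPKM in srl1-KO and at 26.9, 25.0 and 31.3 FPKM in non-KO. The groups overlapped by a small margin, and the log2 change of -0.34 ± 0.14 (SE) did not pass (limma adjusted p = 0.114), though it did after scaling by the median of ratios (-0.45, adjusted p = 0.0485). The reference table lists 2 further genes that overlap the gene named GID2, and any use of strand in counting is not given in the sources used here, so the GID2 values are uncertain. Within each library the ratio of SLR1 to GID1 was 0.954, 1.24 and 1.51 in srl1-KO and 0.537, 0.363 and 0.371 in non-KO. The repressor transcript was near or above the receptor transcript in srl1-KO and well under it in non-KO, which restates the separation of both genes and was not tested.

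Of 6 further signalling genes, 4 were tested, GAMYB rose and none fell, where 15.3% of all tested loci rose and 27.2% were called. This 1 call in 4 genes is near the share over the whole table. GAMYB (Os01g0812000) encodes a MYB factor that gibberellin induces in cereal aleurone. It was at 3.93, 3.30 and 2.21 FPKM in srl1-KO and at 1.35, 1.08 and 1.95 FPKM in non-KO, without overlap, and its log2 change was 0.75 ± 0.22 (SE; limma adjusted p = 0.0467). That call ended without replicate 1 or 2 of either genotype (adjusted p between 0.117 and 0.136) and in 4 other settings of the fit. D1 (Os05g0333200), the G protein alpha subunit, was at 26.5 ± 1.42 FPKM in srl1-KO and 33.1 ± 3.07 FPKM in non-KO (SD, n = 3 each) without overlap, and it missed the threshold (limma adjusted p = 0.0781), though it passed after scaling by the median of ratios (0.0404) and with library weights (0.032). SPY (Os08g0559300), a glycosyltransferase that acts on DELLA proteins, was at 16.6 ± 0.165 and 16.6 ± 2.46 FPKM. EL1 (Os03g0793500), a casein kinase that phosphorylates SLR1, was at 16.5 ± 1.8 and 15.4 ± 0.522 FPKM, and its log2 change had a 95% interval of -0.17 to 0.35.

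SLRL1 (Os01g0646300), an SLR1-like protein without the DELLA domain, was too low to be tested and is named here after its values were seen. It was at 0.166, 0.0922 and 0.0659 FPKM in srl1-KO and at 0.938, 0.957 and 0.640 FPKM in non-KO. All srl1-KO libraries were under all non-KO libraries, and with no filter on low values its log2 change of -0.73 passed (limma adjusted p = 0.00616). SLRL2 (Os05g0574900) was listed at 0 in every library. Of the 3 GAST family genes, some of which respond to gibberellin, none was high enough to be tested. The highest, GSR1 (Os06g0266800), ran from 0.179 to 1.02 FPKM with overlap between the genotypes, and GASR1 (Os03g0760800) overlapped as well. GASR2 (Os04g0465300) was listed at 0 in every srl1-KO library and at 0.0573, 0.242 and 0.214 FPKM in non-KO, values too low to read a difference from. Over all 24 further pathway genes, 13 were tested, 1 rose, 3 fell and 9 did not pass, with a median log2 change of 0.01 against 0.11 over all tested loci. These 4 calls among 13 genes are a share near the 27.2% called over the whole table.

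The order of the mean transcript levels was different in the genotypes, and GA20ox2 changed place the most, from place 6 in non-KO to place 1 in srl1-KO. GID1, GID2 and GA2ox3 each stood 2 places lower in srl1-KO than in non-KO. In non-KO leaves GID1 was the highest of the 10 genes, with its lowest library above every library of the next gene. GID2, SLR1 and GA2ox3 followed at means of 27.7, 27.3 and 24.8 FPKM with neighbours overlapping, then KO2 at 13.3 FPKM without overlap, and GA20ox2 at 4.14 FPKM overlapping with KAO at 2.54 FPKM. In srl1-KO leaves GA20ox2 at a mean of 45.4 FPKM, SLR1 at 44.0 FPKM and GID1 at 36.0 FPKM led, and neighbours in this order overlapped. GID2 and KO2 came next and overlapped, and GA2ox3 at 4.47 FPKM overlapped with KAO at 3.92 FPKM. GA2ox6, EUI1 and GA3ox2 held the last 3 places in both genotypes. The places of KO2 and GID2 are uncertain, as their values are. The ratio of GA20ox2 to GA2ox3 was 4.50, 8.78 and 33.6 in the knockout libraries and 0.0627, 0.448 and 0.104 in the control libraries, so their order was opposite in the genotypes in all 6 libraries.

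The genes also differed in how much they varied within a genotype. The coefficient of variation of GA20ox2 was 36.6% in srl1-KO and 71.6% in non-KO and that of GA2ox3 was 52.6% and 46.1%, against medians of 13.5% and 15.9% over all tested loci. KO2, SLR1 and GID2 varied by 11.1% to 16.8% in each genotype. Within srl1-KO, replicate 3 held the highest value of KO2, GA20ox2, GA3ox2, EUI1 and SLR1 and the lowest of KAO, GA2ox3 and GID1. Within non-KO, replicate 3 held the highest value of KO2, GA2ox3, GID1, SLR1 and GID2.

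**Figure D4:**
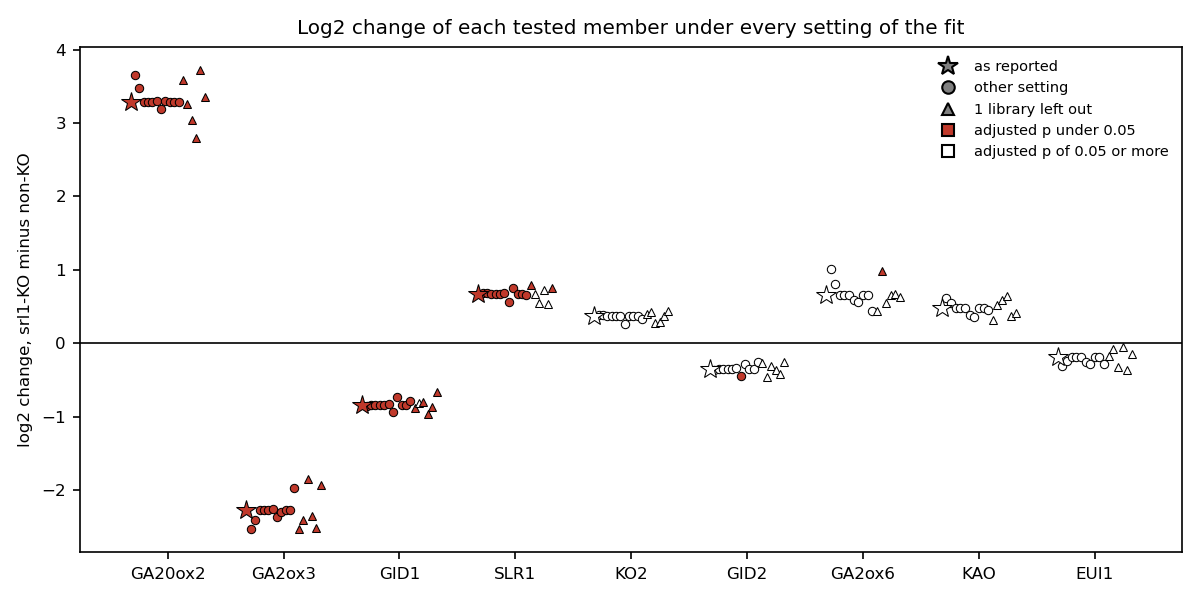
Log2 change of the 9 tested gibberellin genes under each setting of the fit, with a star for the reported value, circles for other settings, triangles for fits without 1 library and red for an adjusted p under 0.05. GA20ox2, from 2.80 to 3.72, and GA2ox3, from -2.53 to -1.85, passed in all of them, while SLR1 is unfilled in 4 of the fits without a library and GID1 in 1.

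Markers of leaf age and of other tissues were measured beside these genes. In bulk leaf RNA, fewer cells of a type and less RNA per cell cannot be told apart. Of 6 genes of senescence and chlorophyll breakdown, 2 rose in srl1-KO and none fell, a share near the 27.2% called over the whole table, and their summed level was 345 to 368 FPKM in srl1-KO and 313 to 405 FPKM in non-KO. The risers were the NAC factor gene NAP (Os03g0327800), at 7.28 ± 2.3 against 2.66 ± 1.54 FPKM (SD, n = 3 each; limma adjusted p = 0.0357), and PAO (Os03g0146400), the pheophorbide a oxygenase gene, at 22.6 ± 3.08 against 12.5 ± 2.7 FPKM (limma adjusted p = 0.0181). NAP lost its call with no filter (0.0701) and without replicate 1 or 2 of srl1-KO or replicate 1 or 3 of non-KO (0.0757 to 0.113), and PAO without replicate 1 or 2 of srl1-KO (0.0518 and 0.069). The most abundant gene of the list, NYC1 (Os01g0227100), was at 227 ± 29.3 against 198 ± 7.74 FPKM. The next, NYC3 (Os06g0354700), had the opposite sign, at 69.9 ± 14.6 FPKM in srl1-KO and 119.5 ± 41.0 FPKM in non-KO with overlap, and did not pass (log2 change -0.73, limma adjusted p = 0.0966). Of 5 photosynthesis genes, RBCS3 (Os12g0291100) and PSBS1 (Os01g0869800) fell 1.49-fold and 1.76-fold (limma adjusted p = 0.0427 and 0.0115), where 11.9% of all tested loci fell and 27.2% were called. RBCS2, RBCS4 and RCA overlapped between genotypes and did not pass (log2 change -0.47, 0.01 and -0.13, limma adjusted p = 0.277, 0.988 and 0.706). The summed level of all 5 genes, of which RBCS2 was the most abundant, was 8337 to 9988 FPKM in srl1-KO and 10576 to 15618 FPKM in non-KO. The RBCS3 call ended without any 1 of the 6 libraries (adjusted p between 0.0744 and 0.159), with no filter (0.473), with a filter at 0.5 FPKM (0.069), with the replicate block (0.111) and with quantile normalization (0.0525). The PSBS1 call ended with no filter (0.0777) and without srl1-KO replicate 2 (0.0558).

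Of 7 markers of dividing tissue, where gibberellin synthesis is known to be active, 4 were too low to be tested. Of the 3 tested, 1 passed, where 27.2% of all tested loci were called. It was GRF1 (Os02g0776900), a growth-regulating factor gene induced by gibberellin in rice, which fell from 2.64 ± 0.366 to 0.883 ± 0.0806 FPKM (SD, n = 3 each; limma adjusted p = 0.00553). GRF1 averaged under 1 FPKM in srl1-KO and was tested only through its non-KO level. The meristem gene OSH1 and the mitotic cyclin gene CYCB2;2 reached at most 0.0185 FPKM in any library. The other tested genes of the list had the opposite sign to GRF1 and did not pass. PCNA (Os02g0805200), the most abundant, was at 11.8 ± 0.754 FPKM in srl1-KO and 9.30 ± 2.2 FPKM in non-KO with overlap (log2 change 0.33, limma adjusted p = 0.172). MCM2 (Os11g0484300) was at 1.55 ± 0.0803 and 1.19 ± 0.179 FPKM without overlap (log2 change 0.23, limma adjusted p = 0.287). The summed level of the list was 14.0 to 15.5 FPKM in srl1-KO and 12.9 to 15.9 FPKM in non-KO. The 3 cellulose synthase genes of secondary walls summed to 2.82 to 8.07 FPKM in srl1-KO and 2.05 to 18.4 FPKM in non-KO, none passed, and CESA4 was the most abundant. The part of leaf age or tissue composition in the gibberellin gene differences was not tested.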

How the data were processed

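Libraries were made from 1 µg of total RNA after poly(A) selection, with fragments near 240 bp, per the labels' protocols. The authors deposited FPKM values in 1 table, with a separate column for each replicate. According to the submitters' processing notes, the tools DESeq2 and HISAT2 and the build IRGSP-1.0 were used. How FPKM was computed is not given in the sources used here.

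Loci averaging 1 FPKM or more across all 6 libraries (19556 of 39477) were compared on log2(FPKM + 1) with limma 3.58.1 in R 4.3.3 (lmFit, eBayes with trend, two-sided) and Benjamini-Hochberg adjustment over all of them, with a threshold of 0.05. GA2ox6, GA2ox7 and GRF1 passed the filter only through the genotype where they were higher. The log2(FPKM + 1) scale understates the change of low genes. Folds are ratios of mean FPKM. GA3ox2, too low for the fit, was compared by exact permutation of the 6 libraries. The within-library ratios were chosen after their values were seen and are given with no test.

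All 10 genes are named, and of the further lists each gene that passed and the most abundant gene of each role or marker list. Most other genes of the pathway list and some of the marker lists are named as well. Among these, GA2ox2, SLRL1, GASR1, GASR2, NYC3 and MCM2 are named after their values were seen. The members and lists were chosen with earlier results of these data known. Names come from general knowledge of rice genes. The reference table (ASM3414082v1) places 7 of the 10 member names and 10 of the 24 other pathway names on the chromosome in the identifier, and all 34 pairs of checked names sharing a chromosome stood in the same order. GA3ox2, GA2ox3 and GA2ox6 were not found there, nor were SRL1, GA2ox2, GA2ox7 and GA2ox9. No sequence or coordinate is printed because none of the files' build was used here.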

Additional observations from a re-analysis of the deposited data

How the results depend on the processing

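GA20ox2 and GA2ox3 kept direction and call in all 17 alternatives, SLR1 and GID1 in all that kept the 6 libraries, and no tested member changed sign. The number of members called was 3 to 5 in every alternative. Of the other pathway genes, 4 were called in the reported fit. With no filter the calls were 2, GA2ox7 and SLRL1, which the reported fit did not test, so 3 of the 4 calls were lost. The count was 6 with library weights (1 rose, 5 fell), 2 with a filter at a mean of 5 FPKM and 2 with quantile normalization. It was 1 with the replicate block and, when a library was left out, 1 to 4. Fewer genes enter with the filter at 5 FPKM, and fewer residual degrees of freedom with the block or a left-out library. What caused the counts to differ was not tested. Calls over the table were 5321 as reported, 6662 with library weights, 3649 with the replicate block and, when a library was left out, 2943 to 4649. With the block GA2ox9, KS1 and GAMYB missed the threshold (adjusted p = 0.0831, 0.0985 and 0.106) and no other pathway call changed. The labels do not say that the shared numbers pair the libraries. Same-numbered deviations from the genotype means correlated at -0.05, 0.05 and 0.02, and 0 of 6 libraries correlated best with their own number. Sign changes were limited to uncalled genes. GA20ox1 was at -0.017 with quantile normalization, -0.0057 with library weights and -0.13 to 0.25 without 1 library. SPY was at -0.095 and EL1 at -0.014 after scaling by the median of ratios, and SPY at -0.077 to 0.12 without 1 library. Under that scaling the median over all tested loci was 0.02 on the log2 scale, against 0.11 as deposited. The absolute depth is unknown, which leaves GA3ox2 and other genes under 1 FPKM with no counting interval.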
